A study of Mus musculus with 5 samples.

Results

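The tiles described here were regions of the mouse autosomes where DNA methylation was higher in the P5_LCDM_1 teratoma than in the other teratomas. A tile was a fixed window of 1 kb of the mm10 genome, and its level was the mean methylation percent of its cytosines. Tiles needed 5 or more cytosines listed in all 5 libraries, and 158035 tiles met this. A member was a tile where P5_LCDM_1 stood 25 percentage points or more above the highest of P5_2iL, P5_2iL_F and P5_a2iL_1. There were 1004 members, which was 0.635% of the tiles. A margin of 25 points was within reach only where the highest of the other 3 teratomas was at 75% or lower, and members were 2.07% of the 48406 tiles with such a level. The members were thus selected on the levels of the 4 teratoma libraries, and those levels are given as a description. Muscle was not used in the choice.

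The libraries came from 4 teratomas, labelled P5_LCDM_1, P5_2iL, P5_2iL_F and P5_a2iL_1 after a culture condition, and from muscle labelled as control. A teratoma is a tumour that pluripotent cells form in a host and that holds a mixture of differentiated tissues. All 5 carried the strain label C57BL/6x129S6. The labels do not spell out the culture names, the host, the cells of origin or the number of tumours behind a library, and with 1 library per group every difference here is a difference between single libraries, with no replicate check and no p-value. Reduced representation bisulfite sequencing reads cytosines in CpG-rich fragments and gives for each one the percent of reads in which it was methylated. The 5 libraries listed between 4017125 and 5323090 cytosines, and 3079380 autosomal ones were listed in all 5. The files hold no read counts, so the depth behind each percent is unknown and no interval can be put on a level. At 38 skeletal muscle genes with cytosines within 500 bp of their start, the median level was 60.1% in P5_LCDM_1, 74.9% in P5_2iL, 77.7% in P5_2iL_F and 60.4% in P5_a2iL_1, against 17.7% in muscle, and muscle was the lowest library at 29 of them.

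In mammals most CpG sites are methylated, while the CpG-dense islands around many gene starts are kept free of methylation. Islands of genes that steer development, such as the Hox, Lhx and T-box families, often extend over the gene body and are bound by the Polycomb complexes in cells where the gene is silent. In a bulk library a level between 0% and 100% can come from a share of the cells, from one of both alleles or from a share of the sites, and these cannot be told apart here.

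Promoter sequences of 6 genes show single cytosines at members near a gene start, where 18.6% of the members lay. Each is the RefSeq window from 250 bases before to 50 bases after the start in GRCm38.p6, the assembly of mm10, read 5′ to 3′ on the strand of the gene. Capitals mark CpG sites with at least one cytosine listed in all 5 libraries, and other CpG sites stay in lower case. Each of the 6 windows overlapped a member tile, and they were picked with their values known: Mpp2, Aldoc and Lrtm2 for low levels in muscle, Sstr4 for its many CpG sites, Hoxa7 as a Hox gene and Hes7 for a high level in muscle.
Mpp2: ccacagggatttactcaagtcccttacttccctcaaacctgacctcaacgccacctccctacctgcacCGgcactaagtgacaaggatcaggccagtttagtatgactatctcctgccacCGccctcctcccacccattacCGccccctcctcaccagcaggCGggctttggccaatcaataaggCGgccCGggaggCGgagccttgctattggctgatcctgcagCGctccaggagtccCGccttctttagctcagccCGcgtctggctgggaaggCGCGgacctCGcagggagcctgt
Aldoc: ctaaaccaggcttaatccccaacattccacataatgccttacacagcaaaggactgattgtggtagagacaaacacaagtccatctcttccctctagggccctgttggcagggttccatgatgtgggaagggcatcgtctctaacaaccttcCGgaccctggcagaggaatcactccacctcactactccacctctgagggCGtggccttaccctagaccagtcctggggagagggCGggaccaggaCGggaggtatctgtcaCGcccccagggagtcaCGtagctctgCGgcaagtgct
Lrtm2: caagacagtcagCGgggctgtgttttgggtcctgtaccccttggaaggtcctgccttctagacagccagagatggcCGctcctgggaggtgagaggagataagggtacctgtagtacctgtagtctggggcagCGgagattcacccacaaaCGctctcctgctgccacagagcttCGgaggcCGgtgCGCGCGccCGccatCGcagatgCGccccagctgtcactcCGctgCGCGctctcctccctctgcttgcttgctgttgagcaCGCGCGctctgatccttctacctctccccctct
Sstr4: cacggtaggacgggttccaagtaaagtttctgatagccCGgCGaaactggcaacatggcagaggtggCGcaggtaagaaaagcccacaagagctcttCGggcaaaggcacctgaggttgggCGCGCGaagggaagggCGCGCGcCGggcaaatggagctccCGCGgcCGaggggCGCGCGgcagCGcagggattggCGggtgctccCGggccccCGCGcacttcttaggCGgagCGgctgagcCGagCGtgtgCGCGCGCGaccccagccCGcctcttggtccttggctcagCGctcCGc
Hoxa7: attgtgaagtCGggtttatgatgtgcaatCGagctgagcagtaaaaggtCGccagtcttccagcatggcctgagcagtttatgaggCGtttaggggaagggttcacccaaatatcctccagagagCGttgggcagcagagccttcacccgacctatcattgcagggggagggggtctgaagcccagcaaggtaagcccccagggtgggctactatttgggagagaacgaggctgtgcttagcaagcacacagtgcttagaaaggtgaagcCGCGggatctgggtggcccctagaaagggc
Hes7: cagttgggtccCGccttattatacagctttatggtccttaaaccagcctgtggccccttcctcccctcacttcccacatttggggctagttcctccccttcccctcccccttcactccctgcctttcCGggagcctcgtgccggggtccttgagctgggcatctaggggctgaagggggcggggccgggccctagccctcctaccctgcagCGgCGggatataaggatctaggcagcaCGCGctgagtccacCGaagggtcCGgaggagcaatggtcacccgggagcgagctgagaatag

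The Mpp2 window, chr11:102082435-102082734 on the minus strand, belongs to a gene for a membrane scaffold protein and had 15 CpG sites, of which 13 were listed. Its 13 cytosines averaged 58.9% in P5_LCDM_1, 4.67% in P5_2iL, 4.38% in P5_2iL_F and 10.3% in P5_a2iL_1, against 0% in muscle. In P5_LCDM_1 single cytosines ran between 14.3% and 100%, and in muscle each of them was at 0%. P5_LCDM_1 was the highest teratoma at 12 of the 13. The Aldoc window, chr11:78322823-78323122 on the plus strand, precedes the gene of a glycolytic aldolase of brain and averaged 58.3% in P5_LCDM_1, 5.54% in P5_2iL, 0.481% in P5_2iL_F and 10.5% in P5_a2iL_1, against 10.1% in muscle. All 13 of its cytosines were higher in P5_LCDM_1 than in the other teratomas. The Lrtm2 window, chr6:119330717-119331016 on the minus strand, averaged 53.9% in P5_LCDM_1, 6.75% in P5_2iL, 7.94% in P5_2iL_F and 10.8% in P5_a2iL_1, against 7.76% in muscle, and P5_LCDM_1 was the highest teratoma at all 23 cytosines.

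Sstr4 encodes a somatostatin receptor, and its window, chr2:148395127-148395426 on the plus strand, held 35 CpG sites. Over 56 cytosines it averaged 54.3% in P5_LCDM_1, 10.7% in P5_2iL, 9.45% in P5_2iL_F and 18.7% in P5_a2iL_1, against 5.36% in muscle. P5_LCDM_1 was the highest teratoma at 49 of these cytosines. Hoxa7, a Hox gene of the trunk, had 67.9% in P5_LCDM_1, 18.8% in P5_2iL, 14.3% in P5_2iL_F and 34.5% in P5_a2iL_1, against 14.3% in muscle, over 14 cytosines of chr6:52218524-52218823 on the minus strand, and P5_LCDM_1 was the highest teratoma at 10 of them. Hes7, a repressor of the segmentation clock, differed from these in muscle: its window, chr11:69120203-69120502 on the plus strand, had 69.1% in P5_LCDM_1, 1.79% in P5_2iL, 3.23% in P5_2iL_F and 14.0% in P5_a2iL_1, against 60.5% in muscle. Its 8 cytosines in muscle ran between 0% and 100%, while those in P5_LCDM_1 lay between 60% and 80% and were the highest of the teratomas at all 8.

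Levels at the members were intermediate in P5_LCDM_1 and low in the others. The median was 61.6% in P5_LCDM_1, with quartiles of 48.2% and 75.01%, and the medians were 11.6% in P5_2iL, 14.4% in P5_2iL_F and 22.3% in P5_a2iL_1, against 34.9% in muscle. P5_LCDM_1 lay between 20% and 80% in 820 members and reached 80% in 184. Over all 158035 tiles the order was another one, with a median of 71.9% in P5_LCDM_1, 87.6% in P5_2iL, 85.8% in P5_2iL_F and 78.5% in P5_a2iL_1, against 72.9% in muscle. P5_LCDM_1 was thus the teratoma with the lowest median over all tiles, while it was the highest at the members. The same margin in the other direction, with P5_LCDM_1 below the lowest of the others, held for 7223 tiles or 4.57%, against 132 (0.0835%) for P5_2iL, 109 (0.069%) for P5_2iL_F and 1607 (1.02%) for P5_a2iL_1.

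**Figure D1:**
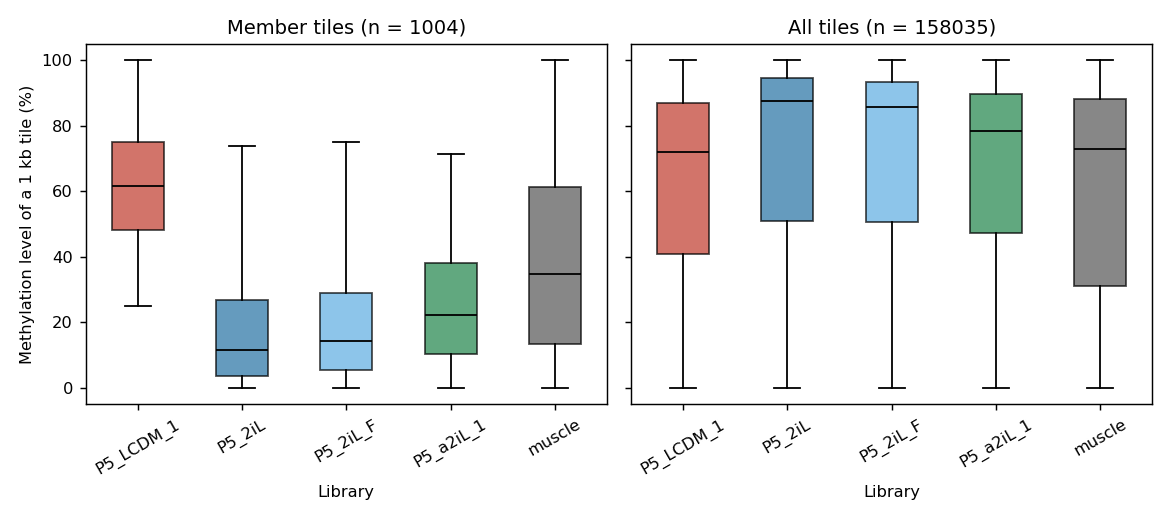
Methylation level (%) of 1 kb tiles in each library, at the 1004 members on the left and at all 158035 tiles on the right; boxes give quartiles and median, and whiskers the lowest and highest tile. At the members P5_LCDM_1 has a median of 61.6% and muscle one of 34.9%, while over all tiles P5_LCDM_1 has the lowest median of the 4 teratomas, 71.9%.

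The margin of P5_LCDM_1 over the highest other teratoma had a median of 32.1 points and a largest value of 94.4 points. The threshold fell in a continuous range of margins, with 108 tiles between 25 and 26 points and 92 tiles between 24 and 25 points. Those just inside had medians of 57.6% in P5_LCDM_1, 17.8% in P5_2iL, 15.9% in P5_2iL_F and 28.7% in P5_a2iL_1, against 34.1% in muscle. Those just outside had 68.0% in P5_LCDM_1, 28.7% in P5_2iL, 31.3% in P5_2iL_F and 37.3% in P5_a2iL_1, against 47.6% in muscle. The highest of the other teratomas was P5_a2iL_1 at 655 members, P5_2iL_F at 191 and P5_2iL at 158, and without P5_a2iL_1 among the compared libraries 2897 tiles met the rule. When the mean was taken over the cytosines of each file and not over the shared ones, 1052 tiles met it and 747 of these were members. The members held 18564 shared cytosines, and P5_LCDM_1 was the highest teratoma at 15315 of them, or 82.5%, which describes the values that chose the members. In 254 members it was the highest at every cytosine.

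Set on its own, each other teratoma had fewer tiles high by the same rule: 225 in P5_2iL (0.142%), 102 in P5_2iL_F (0.0645%) and 654 in P5_a2iL_1 (0.414%). These counts depend on how near the closest compared library is. A tile about equally high in P5_2iL and P5_2iL_F counted for neither, and their medians over all tiles were close, at 87.6% and 85.8%. The cytosines of the other DNA strand gave a reading that the choice did not use. Among 102619 tiles with 3 or more cytosines on each strand, 894 met the margin for P5_LCDM_1 on the forward strand, and 307 of these (34.3%) also met it on the reverse strand, against 0.836% of all such tiles. The median margin on the reverse strand was 17.9 points. For tiles chosen in the same way the share was 3.33% in P5_2iL, 1.90% in P5_2iL_F and 19.7% in P5_a2iL_1. Of 639 members with enough cytosines on both strands, 285 met the margin on each strand alone, 312 on one strand and 42 on neither.

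Muscle split the members. P5_LCDM_1 was 25 points or more above muscle at 522 members (52.0%, exact binomial 95% interval 48.8% to 55.1%), with a background of 8.55% of all tiles and 6.33% of the tiles with the other teratomas at 75% or lower. An excess over that background is built in, since the members were chosen for a high level in P5_LCDM_1. These 522 tiles, 0.33% of all tiles, stood above all 4 other libraries by the margin. Muscle was 25 points or more above the highest of P5_2iL, P5_2iL_F and P5_a2iL_1 at 266 members (26.5%, interval 23.8% to 29.3%), against 0.79% of all tiles and 2.58% of those with the other teratomas at 75% or lower. At 2 members both held. Part of the excess in the share with muscle above the other teratomas is built in too. The members were chosen with those teratomas far below P5_LCDM_1. Without P5_a2iL_1 in the rule, 28.3% of the 2897 tiles stood 25 points above muscle. Intervals on shares of tiles cover counting only, and neighbouring tiles are not independent.

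The level of muscle was above that of other tiles in the same broad class of the highest other teratoma. Where the highest of the other 3 was below 10%, muscle had a median of 9.17% at 187 members, against 0.662% at 22345 other tiles. Between 10% and 25% it was 23.3% at 309 members, against 8.09% at 5647 other tiles. Between 25% and 50% it was 49.0% at 382 members, against 26.01% at 6678, and between 50% and 75% it was 66.7% at 126 members, against 51.1% at 12732. In each of the 4 classes the members were thus the more methylated in muscle. Levels within a class were not equal: the median of the highest other teratoma was 6.03% at members and 1.47% at other tiles in the lowest class, 16.7% and 16.0% in the next, 36.9% and 38.02% in the third, and 58.3% and 66.0% in the highest.

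**Figure D2:**
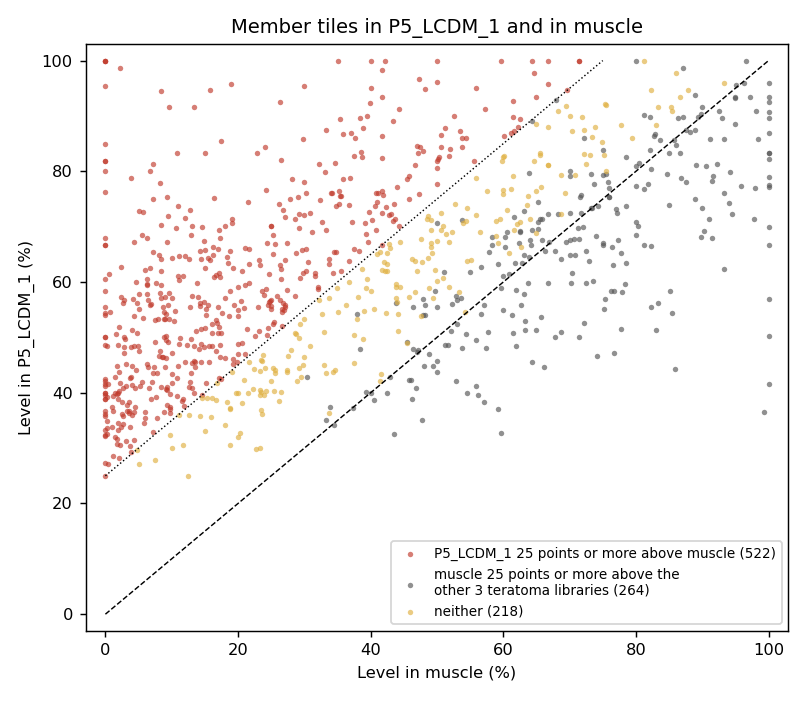
Level (%) of each of the 1004 members in P5_LCDM_1 against its level (%) in muscle, coloured by group; the dashed line marks equal levels and the dotted line P5_LCDM_1 at 25 points above muscle. The 522 red tiles stand above the dotted line, and the 264 grey tiles lie around the line of equal levels at the upper right.

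The groups differed in shared cytosines per tile and in position. The 522 tiles above muscle had a median of 13 cytosines, 77 of them had 40 or more, and 23.4% lay within 1 kb of a gene start. The 264 tiles where muscle stood above the other teratomas, without the 2 that met both conditions, had a median of 8 cytosines, 5 had 40 or more, and 11.7% lay near a start. Their median level was 67.1% in P5_LCDM_1, 10.2% in P5_2iL, 15.3% in P5_2iL_F and 27.8% in P5_a2iL_1, against 71.9% in muscle. The remaining 218 tiles had intermediate levels in muscle, with a median of 43.9%. Tiles high in P5_a2iL_1 instead were divided in a like way, with 42.5% of 654 tiles 25 points above muscle and 32.3% with muscle above the other teratomas, while those of P5_2iL had 81.3% and 4.89%.

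CpG density was counted as shared cytosines per tile, which also depends on which cytosines all 5 files listed. A low count can therefore come from a CpG-rich tile with few listed sites. The Hes7 window printed above had 14 CpG sites, of which 8 were listed. By this count the members were close to all tiles and below the tiles that could have passed. Members had a median of 11 cytosines, against 10 in all tiles and 18 in tiles with the other teratomas at 75% or lower. Tiles with 40 or more cytosines made up 11.0% of the members, 9.53% of all tiles and 28.3% of those that could have passed. Over all tiles the share of members was 0.593% at 5 to 9 cytosines, 0.880% at 40 to 79 and 0.403% at 80 or more. Of the tiles that could have passed, members were 3.16% with 5 to 9 cytosines, 2.60% with 10 to 19, 1.75% with 20 to 39, 1.01% with 40 to 79 and 0.409% with 80 or more. Part of this fall went with the level in the other teratomas. Of the 4650 such tiles with 80 or more cytosines, 4237 were at 10% or lower in each of them. At that level members were 2.67% with 5 to 9 cytosines and 0.189% with 80 or more. Between 10% and 25% they were 6.86% and 3.36%. Members with more cytosines were also less methylated in P5_LCDM_1, at a median of 67.8% for 5 to 9 cytosines and 47.6% for 80 or more. Muscle had 50% and 9.68% in the same classes.

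Most members lay in gene bodies. Of the 1004, 521 (51.9%) lay within a RefSeq protein coding gene more than 1 kb from a start, 187 (18.6%) lay within 1 kb of a start and 296 (29.5%) lay outside genes. Among the tiles that could have passed, 26.8% were in gene bodies, 46.8% near a start and 26.4% outside genes. Members were therefore 4.02% of such gene body tiles (interval 3.69% to 4.37%), 2.32% of those outside genes (2.06% to 2.59%) and 0.825% of those near a start (0.711% to 0.951%). Over all tiles, most of which were too highly methylated in the other teratomas to pass, the shares were 0.762% in gene bodies, 0.471% outside genes and 0.696% near a start, so the low share near a start held only among the tiles that could have passed. By distance the share of the tiles that could have passed was 0.603% where a start lay in the tile, 1.09% up to 1 kb away, 3.81% at 1 to 5 kb, 3.46% at 5 to 20 kb and 1.95% beyond 100 kb.

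Position and density were not the same thing. Among gene body tiles with 40 to 79 cytosines, 48 of 1245 (3.86%) were members, against 27 of 7007 (0.385%) near a start. Within gene bodies the share stayed between 3.68% and 4.35% from 5 to 79 cytosines and was 2.12% at 80 or more, while near a start it was 2.15% at 5 to 9 cytosines and 0.153% at 80 or more. Part of the difference went with the level in the other teratomas, since 17605 of the 22670 tiles near a start were below 10% in all 3. At that level members were 3.27% of gene body tiles and 0.329% of tiles near a start, and between 10% and 25% they were 8.32% and 2.97%.

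**Figure D3:**
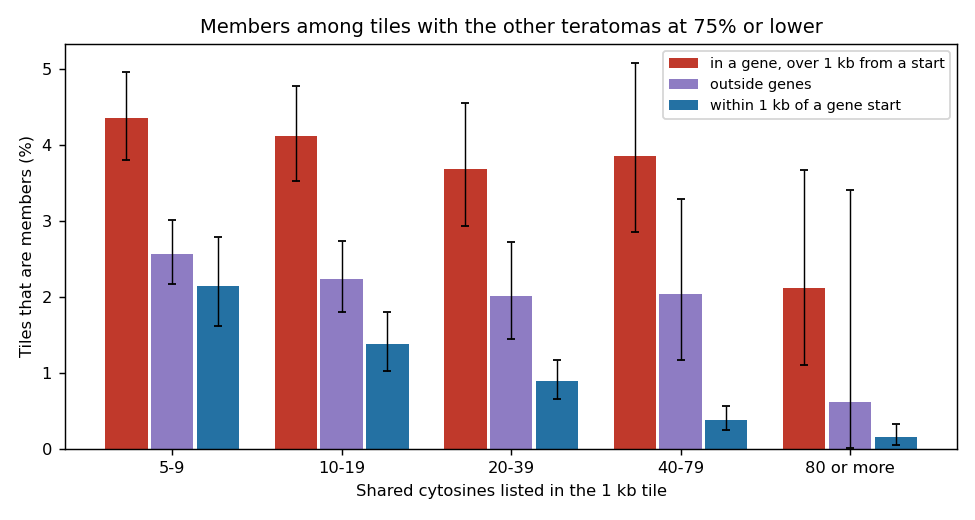
Share (%) of the tiles with the other teratomas at 75% or lower that are members, by shared cytosines in the tile and position; bars give the share and error bars its exact 95% binomial interval. Gene body tiles stay between 3.68% and 4.35% up to 79 cytosines, while tiles near a start go down to 0.153% at 80 or more.

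In the promoter windows themselves, 62 of 11678 with 5 or more shared cytosines met the margin, or 0.531%, and 39 of the 62 overlapped a member tile. In 48 of the 62 P5_LCDM_1 was also 25 points above muscle. The 62 windows had a median of 12 CpG sites, against 23 in all windows, a median GC content of 58.7% against 63.3%, and a median ratio of observed to expected CpG of 0.507 against 0.791. The letters GGGCGG, the core of the GC box, were found on either strand in 46.8% of them, against 67.8% of all windows. CACGTG, which reads the same on both strands, was found in 3.23% against 10.4%, and TATAAA on either strand in 11.3% against 5.42%. CACGTG and GGGCGG each hold a CpG, and TATAAA holds none. The strongest window was that of Mcf2l, a guanine nucleotide exchange factor gene, with 72.6% in P5_LCDM_1, 4.51% in P5_2iL, 11.8% in P5_2iL_F and 4.90% in P5_a2iL_1, against 1.43% in muscle.

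The higher level of P5_LCDM_1 than of the other teratomas was seen in the next tile and was small beyond it. In 580 flanking tiles that were not members themselves, the mean was 44.2% in P5_LCDM_1, 35.4% in P5_2iL, 35.6% in P5_2iL_F and 37.6% in P5_a2iL_1, against 37.1% in muscle. P5_LCDM_1 was the highest teratoma at 58.1% of them (interval 54.0% to 62.2%), against 15.2% of all tiles and 31.0% of the tiles with the other teratomas at 75% or lower. At 2 to 5 kb on either side its mean exceeded the highest other teratoma mean by 2.51 points at most, and it was the highest at between 27.1% and 35.8% of the tiles. Over all tiles the same difference of means was -8.00 points, so the tiles at 2 to 5 kb still differed from all tiles. Flanking tiles were not limited to those with the other teratomas at 75% or lower. Of the 1004 members 873 had no neighbour that was a member, and 131 lay in 61 runs of adjoining tiles.

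**Figure D4:**
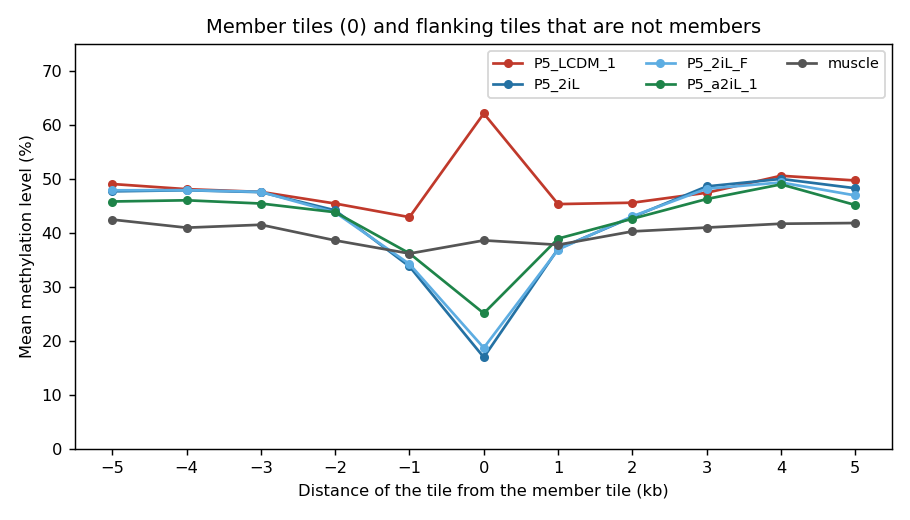
Mean methylation level (%) of each library at the members (distance 0) and at tiles up to 5 kb to either side that are not members. P5_LCDM_1 stands at 62.1% at the members and muscle at 38.6%, and at 5 kb to either side P5_LCDM_1 stands at 49.1% and 49.7% and muscle at 42.5% and 41.8%.

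The members were spread over all 19 autosomes, with the lowest share on chromosome 4 (44 members, 1.22% of the tiles that could have passed) and the highest on chromosome 2 (126 members, 3.22%). The HoxD cluster, Lhx2 and Lhx6 lie on chromosome 2, and outside these 3 loci its share was 2.53%. A member lay in or within 1 kb of 622 of 16933 protein coding genes (3.67%), or 4.22% of the 14748 genes that had a tile with the other teratomas at 75% or lower. One member was found at 535 of these genes, and 26 had 3 or more. The most were in Lhx2 with 9 of its 17 tiles, Hoxd3 with 8 of 18, Gse1 with 8 of 138, Lhx6 with 6 of 10, Tbx2 with 5 of 10 and Celf4 with 5 of 40, followed by Cdkn2a, Zbtb16, Nr5a2 and Nfix with 4 each. Of these, Lhx2, Hoxd3, Lhx6, Tbx2, Zbtb16, Nr5a2 and Nfix encode transcription factors.

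HoxD genes set positions along the body axis and the limbs, and their cluster on chr2:74668225-74765142 held 14 members among 45 tiles, or 31.1%. The other clusters had 2 of 55 tiles in HoxA, 2 of 66 in HoxB and 0 of 53 in HoxC. The 14 members had medians of 51.9% in P5_LCDM_1, 13.3% in P5_2iL, 9.73% in P5_2iL_F and 11.9% in P5_a2iL_1, against 21.04% in muscle, and P5_LCDM_1 was 25 points above muscle at 7 of them. Most of them lay in the span that RefSeq gives to Hoxd3, which overlaps Hoxd4. Over 53 cytosines of chr2:74736001-74737000 in Hoxd3, the level was 58.9% in P5_LCDM_1, 8.37% in P5_2iL, 8.85% in P5_2iL_F and 10.2% in P5_a2iL_1, against 35.0% in muscle. Over 46 cytosines of chr2:74733001-74734000 in Hoxd3 it was 51.2% in P5_LCDM_1, 5.08% in P5_2iL, 9.38% in P5_2iL_F and 8.76% in P5_a2iL_1, against 52.2% in muscle. Muscle was thus level with P5_LCDM_1 in the Hoxd3 tile of 46 cytosines. In the tile of 53 cytosines it lay between P5_LCDM_1 and the other teratomas. Toward the other end of the cluster a tile of 16 cytosines in Hoxd10 had 48.6% in P5_LCDM_1, 5.54% in P5_2iL, 5.29% in P5_2iL_F and 9.75% in P5_a2iL_1, against 17.2% in muscle.

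In the other clusters Hoxb5 had both HoxB members, the higher with 54.2% in P5_LCDM_1, 7.78% in P5_2iL, 5.24% in P5_2iL_F and 8.65% in P5_a2iL_1, against 37.9% in muscle. In HoxA the members lay at Hoxa7, whose promoter is printed above, and at Hoxa9. Over the 39 Hox genes together, 8 had a member, and members were 10% of their tiles with the other teratomas at 75% or lower, against 1.99% for all protein coding genes.

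Lhx2, a LIM homeodomain factor of the eye and forebrain, held the longest run, 4 adjoining tiles with 180 cytosines on chr2:38354001-38358000. The 4 tiles averaged 44.8% in P5_LCDM_1, 5.48% in P5_2iL, 6.04% in P5_2iL_F and 8.73% in P5_a2iL_1, against 19.4% in muscle. The 8 Lhx2 tiles that were not members had medians of 19.5% in P5_LCDM_1, 3.08% in P5_2iL, 3.26% in P5_2iL_F and 4.81% in P5_a2iL_1, against 5.53% in muscle, and P5_LCDM_1 was the highest teratoma at 5 of them. Lhx6, a related factor of cortical interneurons, had in the 56 cytosines of chr2:36103001-36104000 a level of 50.8% in P5_LCDM_1, 2.32% in P5_2iL, 3.09% in P5_2iL_F and 8.35% in P5_a2iL_1, against 4.80% in muscle. The next Lhx6 tile, chr2:36104001-36105000, was low in every library, at 5.44% in P5_LCDM_1, 1.57% in P5_2iL, 2.23% in P5_2iL_F and 2.24% in P5_a2iL_1, against 0.317% in muscle.

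Tbx2, a T-box repressor, showed the same division within the gene. Over 104 cytosines of chr11:85837001-85838000 its level was 53.1% in P5_LCDM_1, 6.80% in P5_2iL, 7.34% in P5_2iL_F and 8.68% in P5_a2iL_1, against 7.496% in muscle. The Tbx2 tile that holds the first base of the gene, chr11:85832001-85833000, had 1.18% in P5_LCDM_1, 3.30% in P5_2iL, 3.68% in P5_2iL_F and 3.80% in P5_a2iL_1, against 0.823% in muscle.

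**Figure D5:**
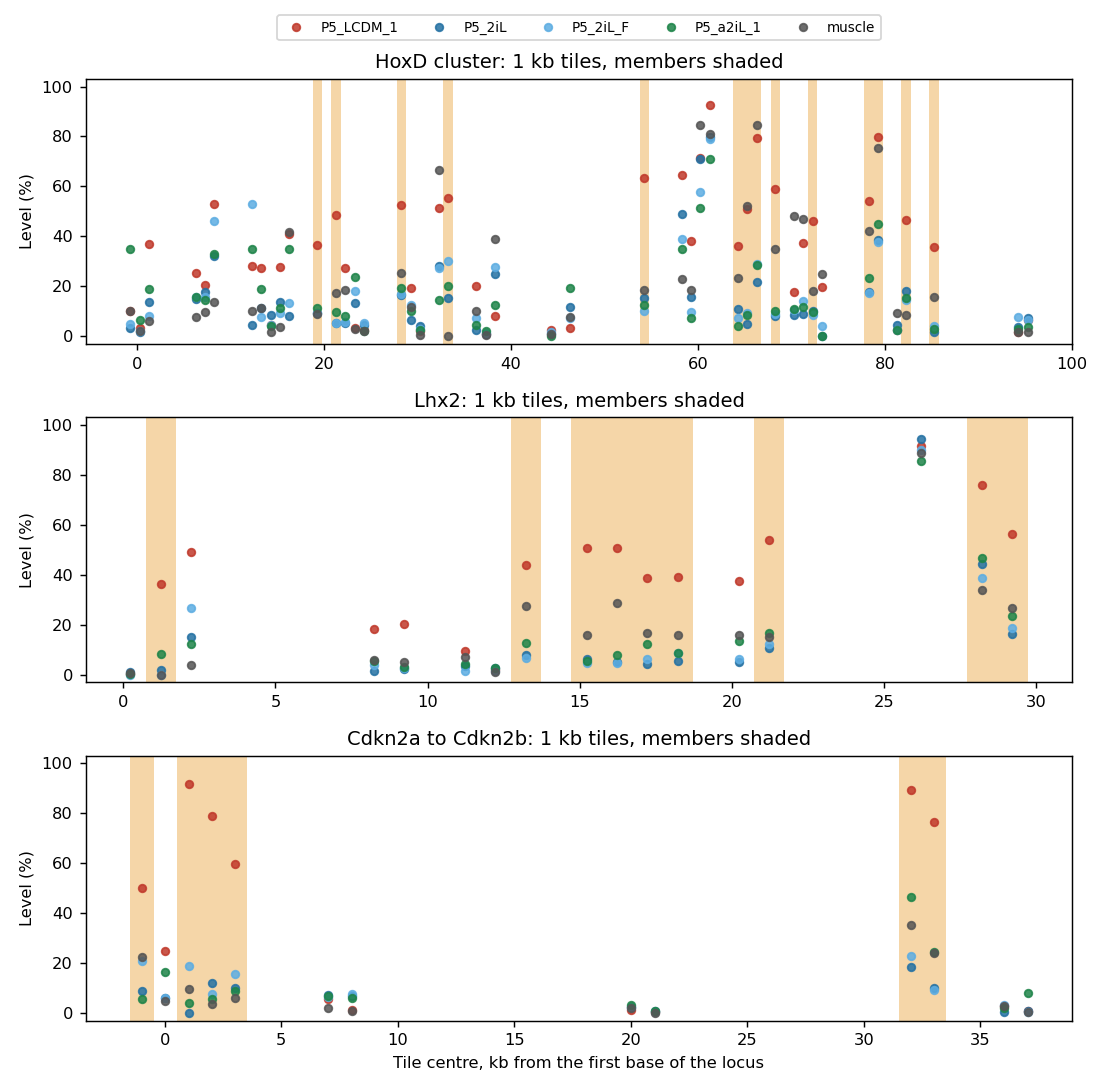
Level (%) of each 1 kb tile of the HoxD cluster, Lhx2 and the stretch of Cdkn2a to Cdkn2b in the 5 libraries, by distance (kb) from the first base of the locus; members are shaded. In the shaded tiles P5_LCDM_1 stands above the other teratomas, between 35.7% and 79.6% in HoxD, 36.2% and 76.1% in Lhx2, and 50.3% and 91.7% in Cdkn2a to Cdkn2b.

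Cdkn2a and Cdkn2b encode inhibitors of cyclin-dependent kinases and are tumour suppressor genes that many cancers silence. Their stretch of chromosome 4 held 6 members, with medians of 77.7% in P5_LCDM_1, 9.95% in P5_2iL, 17.4% in P5_2iL_F and 7.40% in P5_a2iL_1, against 16.0% in muscle. The widest margin among them on many cytosines was in Cdkn2a at chr4:89276001-89277000, where 35 cytosines had 78.9% in P5_LCDM_1, 12.1% in P5_2iL, 7.72% in P5_2iL_F and 5.52% in P5_a2iL_1, against 3.81% in muscle. In Cdkn2b the 18 cytosines of chr4:89307001-89308000 had 76.5% in P5_LCDM_1, 9.95% in P5_2iL, 9.31% in P5_2iL_F and 24.5% in P5_a2iL_1, against 24.2% in muscle. These tiles lay away from the gene starts. The 40 cytosines of the Cdkn2a tile chr4:89282001-89283000, which holds a start, had 1.33% in P5_LCDM_1, 7.06% in P5_2iL, 7.67% in P5_2iL_F and 5.92% in P5_a2iL_1, against 0.775% in muscle. Further CpG-dense stretches of the locus were low in P5_LCDM_1 as well: 112 cytosines of chr4:89294001-89295000 had 1.28%, and 63 cytosines of chr4:89310001-89311000 had 2.88%. The third tumour suppressor of the list with a member, the repressor gene Hic1, had 50.9% in P5_LCDM_1, 8.86% in P5_2iL, 10.02% in P5_2iL_F and 12.3% in P5_a2iL_1, against 32.9% in muscle, over 105 cytosines.

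Among tiles with 10 or more cytosines the widest margins were found in genes of varied function and outside genes, and included tiles of Cdkn2a and Tbx2. A tile with a margin of 78.9 points lay 116479 bp from Map2k6. Another with 63.6 points lay 263267 bp from Gm38538. The widest margin was in Cux1, a homeodomain factor gene, where 10 cytosines of chr5:136403001-136404000 had 91.7% in P5_LCDM_1, 11.2% in P5_2iL, 8% in P5_2iL_F and 5% in P5_a2iL_1, against 13.3% in muscle. That margin was 80.5 points over the shared cytosines and 57.3 points over the cytosines of each file. By the latter reading it was not the widest, since the Cdkn2a tile at chr4:89276001-89277000 had 68.6 points. Egr3, an immediate early transcription factor, had 98.7% in P5_LCDM_1, 10.3% in P5_2iL, 15.0% in P5_2iL_F and 37.8% in P5_a2iL_1, against 2.22% in muscle, at 15 cytosines of chr14:70080001-70081000, 1613 bp from its start. The start of Dab2ip, a Ras GTPase-activating protein gene, had 61.4% in P5_LCDM_1, 1.02% in P5_2iL, 1.05% in P5_2iL_F and 0.368% in P5_a2iL_1, against 0.490% in muscle. Within that Dab2ip tile, chr2:35582001-35583000, P5_LCDM_1 was uneven, with an SD of 42.6 points over 34 cytosines, and it was the highest teratoma at 27 of them.

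Others of the widest margins were in Itpr3, an inositol trisphosphate receptor gene, with 72.8% in P5_LCDM_1 and 63.1% in muscle, and in a tile 8585 bp from Gpr132, with 62.8% in P5_LCDM_1 and 2.28% in muscle. The margin of the tile near Gpr132 was 60.4 points over the shared cytosines and 31.3 points over the cytosines of each file. The largest margin of all members rested on 6 cytosines in the imprinted gene Igf2r, with 100% in P5_LCDM_1, 0% in P5_2iL, 0% in P5_2iL_F and 5.56% in P5_a2iL_1, against 0% in muscle. Kcnq1, another imprinted gene, was high in all teratomas at chr7:143408001-143409000, with 95.8% in P5_LCDM_1, 65.7% in P5_2iL, 67.6% in P5_2iL_F and 50.1% in P5_a2iL_1, against 18.9% in muscle.

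The members with most cytosines were near or in Fignl2, Usp35, Tril, Gata6 and Irx2. Fignl2 had 196 cytosines at chr15:101053001-101054000, 399 bp from its start, with 62.4% in P5_LCDM_1, 23.3% in P5_2iL, 17.3% in P5_2iL_F and 21.4% in P5_a2iL_1, against 38.7% in muscle. Usp35, a deubiquitinase gene, had 177 cytosines at chr7:97325001-97326000, with 58.4% in P5_LCDM_1, 15.5% in P5_2iL, 19.8% in P5_2iL_F and 21.2% in P5_a2iL_1, against 23.6% in muscle. Tril had 146 cytosines at chr6:53818001-53819000, with 36.8% in P5_LCDM_1, 5.01% in P5_2iL, 3.79% in P5_2iL_F and 6.34% in P5_a2iL_1, against 3.32% in muscle. P5_LCDM_1 was the highest teratoma at 164, 134 and 130 of these cytosines in Fignl2, Usp35 and Tril.

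Muscle was furthest above P5_LCDM_1 in Cep85, a centrosomal protein gene, where 17 cytosines of chr4:134162001-134163000 had 36.5% in P5_LCDM_1, 1.38% in P5_2iL, 8.05% in P5_2iL_F and 6.30% in P5_a2iL_1, against 99.3% in muscle. At the start of Il12a, which encodes a cytokine subunit, 36 cytosines of chr3:68691001-68692000 had 47.1% in P5_LCDM_1, 0.523% in P5_2iL, 8.11% in P5_2iL_F and 16.1% in P5_a2iL_1, against 76.7% in muscle. In both genes P5_LCDM_1 lay between the other teratomas and muscle. Muscle was 25 points or more above P5_LCDM_1 at 18 members in all, or 1.79%. Over all tiles it was 5.08%, and a lower share at the members is built into their choice.

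Across 18 lists of genes chosen for tissue and pathway, 58 of 787 genes with a tile had a member (7.37%), against 564 of 16146 genes in no list (3.49%). The lists were chosen with earlier results of these data known. These shares also take no account of the number of tiles per gene, so the difference is a description only. Tbx3, Tet1 and Gata3 counted in more lists than 1. Forkhead, Sox, T-box and Gata genes had 10 of 61 with a member (16.4%), against 3.67% of all protein coding genes. Members were 5.45% of their tiles with the other teratomas at 75% or lower, against 1.99% for all protein coding genes. Foxp1, a forkhead repressor, had 70.1% in P5_LCDM_1, 2.41% in P5_2iL, 2.44% in P5_2iL_F and 12.6% in P5_a2iL_1, against 13.1% in muscle, at 13 cytosines. Gata3, a factor of T cells and trophoblast, had 67.0% in P5_LCDM_1, 6.77% in P5_2iL, 2.47% in P5_2iL_F and 18.7% in P5_a2iL_1, against 62.4% in muscle. Muscle was thus low at Foxp1 and near P5_LCDM_1 at Gata3.

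Homeobox and paired-box genes outside the Hox clusters had 9 of 96 with a member, among them Irx5, Irx2, Nkx6-2, Pax8 and Pax2, and 17 of their 27 member tiles stood 25 points above muscle. Irx2, an Iroquois factor, had 127 cytosines at chr13:72631001-72632000 with 49.9% in P5_LCDM_1, 4.89% in P5_2iL, 5.20% in P5_2iL_F and 11.5% in P5_a2iL_1, against 29.3% in muscle. Other developmental regulators of the basic helix-loop-helix and zinc-finger kind had 2 of 71, Nr2f2 and Ebf3. Nr2f2, an orphan nuclear receptor, had 60.6% in P5_LCDM_1, 4.92% in P5_2iL, 2.20% in P5_2iL_F and 0.699% in P5_a2iL_1, against 0% in muscle.

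Genes of the Nodal pathway and of pluripotency had 6 of 32 with a member, and 0 of the 6 tiles was 25 points above muscle. They included the core pluripotency factor Pou5f1, with 46.5% in P5_LCDM_1, 17.7% in P5_2iL, 14.2% in P5_2iL_F and 21.2% in P5_a2iL_1, against 30.01% in muscle, and the Nodal co-receptor Tdgf1, with 54.8% in P5_LCDM_1, 26.2% in P5_2iL, 18.0% in P5_2iL_F and 27.7% in P5_a2iL_1, against 39.04% in muscle. Both tiles lay near the start of the gene, and in both muscle was between P5_LCDM_1 and the other teratomas.

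The list of DNA methylation machinery and Polycomb genes had 5 of 32 with a member. Among them were Tet1, which oxidises methylated cytosine, with 72.4% in P5_LCDM_1, 32.3% in P5_2iL, 36.3% in P5_2iL_F and 40% in P5_a2iL_1, against 50.7% in muscle, and Dnmt3b, a methyltransferase, with 38.2% in P5_LCDM_1, 9.93% in P5_2iL, 11.3% in P5_2iL_F and 8.71% in P5_a2iL_1, against 20.5% in muscle. At both genes muscle lay between P5_LCDM_1 and the other teratomas.

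Tissue genes, apart from those of mesenchyme, cartilage and collagen with 0 of 44, had members at shares near or above the 3.67% of all protein coding genes, on small counts. Among tiles with the other teratomas at 75% or lower, neural and glial genes had 1.22% members, against 1.99% for all protein coding genes. The list of mesenchyme, cartilage and collagen had 0 member tiles. The remaining lists of this paragraph ran from 2.08% for endoderm and epithelial genes to 4.35% for trophoblast genes. Each of these shares rested on 2 or 3 member tiles, too few to set a list apart from 1.99%. Among skeletal muscle genes 2 of 61 (3.28%) had one, Dysf and Pygm, and Dysf, a membrane repair protein gene, had 57.6% in P5_LCDM_1, 4.09% in P5_2iL, 3.53% in P5_2iL_F and 23.5% in P5_a2iL_1, against 13.1% in muscle. The counts were 2 of 39 (5.13%) for neural and glial genes, 2 of 36 (5.56%) for endoderm and epithelial genes, 2 of 34 (5.88%) for blood and immune genes, 2 of 22 (9.09%) for endothelial genes and 1 of 12 (8.33%) for trophoblast genes. At Vwf, an endothelial gene, 6 cytosines had 83.3% in P5_LCDM_1, 5.95% in P5_2iL, 5.56% in P5_2iL_F and 22.2% in P5_a2iL_1, against 100% in muscle. At Spi1, a blood cell transcription factor, muscle was high too, with 71.0% in P5_LCDM_1, 1.92% in P5_2iL, 12.7% in P5_2iL_F and 34.6% in P5_a2iL_1, against 59.0% in muscle. The share of blood, vessel or other cells in each library was not measured here, and its part in these differences was not tested.

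Signalling genes of the Wnt, hedgehog, BMP, FGF and Notch pathways had 3 of 76 with a member (3.95%), near the 3.67% of all protein coding genes. Imprinted genes had 4 of 36 (11.1%), of which Peg3 and Usp29 shared a tile. Of tiles with the other teratomas at 75% or lower, members were 0.962% in the signalling list and 2.78% in the imprinted list. The counts were 0 of 39 for germline genes that methylation keeps off, 0 of 44 for genes of mesenchyme, cartilage and collagen, and 0 of 51 for clustered protocadherin genes. These lists had 41, 122 and 57 tiles with the other teratomas at 75% or lower, and at the 1.99% of such tiles over all protein coding genes lists of this size would hold few members, so these counts do not set the lists apart.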

How the data were processed

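Reduced representation bisulfite libraries of 4 teratomas and of muscle were analysed, 1 library per group. Each deposited file lists CpG cytosines with a methylation percent that the authors made with Trim Galore 0.6.4 and Bismark on mm10, per the submitters' processing notes. Which Bismark version was used, and whether a minimum of reads was set, is not given in the sources used here. Positions count from 1: all 295770 shared positions inside RefSeq promoter windows then fall on a CpG, against 56.1% when counted from 0. Cytosines of both strands listed in all 5 files were averaged, unweighted, in fixed 1 kb tiles with 5 or more of them. Strands were told apart by the pairing of neighbouring positions, which was right at all 220188 positions checked. Genes came from RefSeq (GRCm38.p6). Of 20665 autosomal protein coding genes 16457 had a start in the promoter table, and for the other 4208 both ends were used. The ends do not show strand, so a few gene starts may be wrong.

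No test was run, since each group had 1 library. Shares carry exact Clopper-Pearson 95% intervals from SciPy 1.17.1, run with pandas 2.3.3 and NumPy 2.4.6 under Python 3.11.15, and figures were drawn with matplotlib 3.10.9. The code of the tile calls was checked on simulated cytosines of chromosome 1, with 10 reads each and the same starting levels in every library. Depth in the files is unknown, so this check covers the code and gives no error rate for the members. The members and the gene lists were chosen with earlier results of these data known. The shares of tiles with the other teratomas at 75% or lower, the promoter windows and the printed sequences were added after seeing the data. The genes named were the 10 tiles of 10 or more cytosines with the widest margin, the 10 furthest above and the 5 furthest below muscle, the 5 tiles with most cytosines, the 10 genes with most members, the 5 longest runs and up to 4 genes per list, described in part. Single genes beyond these were picked with their values known. Alternatives were another minimum of cytosines, other margins, other tiles, the median, own cytosines per file, single strands and leaving out each compared teratoma.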

Additional observations from a re-analysis of the deposited data

Results flagged for a closer look

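At 2 members P5_LCDM_1 stood 25 points or more above muscle while the other 3 teratomas stood 25 points or more below it, so the teratomas lay on opposite sides of muscle. Near Commd8, at chr5:72219001-72220000 and 50812 bp outside the gene, 11 cytosines had 72.7% in P5_LCDM_1, 2.81% in P5_2iL, 4.24% in P5_2iL_F and 14.0% in P5_a2iL_1, against 39.8% in muscle. Near Hmgn3, at chr9:83098001-83099000, 9 cytosines had 82.7% in P5_LCDM_1, 9.88% in P5_2iL, 13.2% in P5_2iL_F and 26.4% in P5_a2iL_1, against 51.9% in muscle. The difference was not tested, and the members were chosen for P5_LCDM_1 standing above the other teratomas.

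Chromosome X was outside the choice of members. It held 22 tiles among 4212 (0.522%) with P5_LCDM_1 25 points above the other teratomas, and at 17 of these P5_LCDM_1 was also 25 points above muscle. The medians of the 22 tiles were 48.1% in P5_LCDM_1, 3.35% in P5_2iL, 4.04% in P5_2iL_F and 6.85% in P5_a2iL_1, against 13.4% in muscle.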

How the results depend on the processing

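No paired analysis was possible because each group holds 1 library. The count of 1004 members became 589 with 10 or more cytosines, 1618, 608 and 209 with margins of 20, 30 and 40 points, 1592 with medians, 583 and 566 on the forward and reverse strand alone, 2897 without P5_a2iL_1 and 522 with muscle added to the libraries to exceed. Means over the cytosines of each file gave 1052 tiles, 747 of them members. Counting tiles from position 0, added after seeing the data, gave 1006.

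The share 25 points above muscle, 52.0%, was 59.6% with 10 or more cytosines, 47.7%, 56.4% and 66.0% with the 3 margins, 59.6% with medians, 62.1% and 62.4% on single strands, and 28.3% without P5_a2iL_1. The share with 40 or more cytosines, 11.0%, was 8.16% and 18.7% with 3 and 10 or more. The share near a start was 22.6% with 10 or more cytosines and, within 2 kb, 27.3%, which left 45.2% in gene bodies. Tiles high in the other teratomas at margins of 20 and 30 points were 545 and 89 in P5_2iL, 241 and 39 in P5_2iL_F, and 1093 and 379 in P5_a2iL_1. With 5 or more cytosines per strand the strand shares were 39.1% and 40.3%, and with members included P5_LCDM_1 was highest at 65.8% of next tiles. The cause was not tested in any of these.

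Of 501 margins of 81 named tiles under these readings, 466 stayed at 25 points or more and 0 reversed. The readings that left out a compared teratoma could only keep or raise a margin, so their outcome was fixed in advance. Only the remaining readings could fall below 25 points. The lowest margin was 1.78 points, in Syt7 over the cytosines of each file, where the tile near Gpr132 had 31.3 points, and Kcnq1 had 18.8 points on the reverse strand. In all, 31 moved by at least the SD of P5_LCDM_1 over the cytosines of the tile. Depth per cytosine is unknown, so tiles of few cytosines are the least certain.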
